A study of Mus musculus with 4 samples.

Results

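The genes described here are 10 genes of the primordial germ cell and germline program, Prdm1, Dppa3, Nanos3, Dnd1, Kit, Dazl, Ddx4, Mael, Sycp3 and Stk31, out of 37620 genes counted by RNA-seq. They were chosen by name, with earlier results of these data known, and each symbol was matched to 1 Ensembl identifier of the count tables. All 10 reached at least 1 CPM (counts per 1000000 counts of the library, scaled by TMM factors) in at least 1 library, as did 14263 genes in all. In the library from cells given BMP4 and an ALK5 inhibitor, 3.17% of the 14263 genes were lower than in its control by at least 2-fold. Of the 10 genes, 3 were lower by the same rule. These were Prdm1, which acts when germ cell fate is set, and Dnd1 and Nanos3, which act in the germ cells that form next. Dppa3 and Kit, placed with them here as early germ cell genes, were not past 2-fold. The 5 genes of the later germline lay within 2-fold of the control.

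In the mouse embryo, BMP4 from the extraembryonic ectoderm acts through SMAD proteins on a few cells of the posterior epiblast, which WNT3 makes competent to respond. These cells switch on Prdm1, Prdm14 and Tfap2c and become primordial germ cells (PGCs), then express Dppa3, Nanos3, Dnd1 and Kit while they migrate. Dazl and Ddx4 come up around the arrival in the gonad, and genes for transposon silencing and meiosis act later still. Naive mouse embryonic stem cells (mESCs) resemble the epiblast before implantation and transcribe many of these genes, with Dppa3 among the best known.

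The study asked how mESCs change state when their signaling inputs change. 4 libraries were analysed, 1 per condition and without replicates, so that no difference here has a replicate check. 3 libraries are from R1, an established mESC line kept without feeder cells in medium with serum, after 2 days of treatment. The fourth is from F4 trophoblast stem cells (TSCs), which represent the placental lineage. The 2i−L medium held CHIR99021, which inhibits GSK3, at 3 µM and PD0325901, which inhibits MEK, at 1 µM, and no LIF. In 2iJ, a JAK inhibitor at 2.0 µM was added to these 2 inhibitors. For 2iJ+B−A, the 2iJ medium also had BMP4 (10 ng/ml) and an inhibitor of ALK5, a receptor of the Activin and TGF-beta pathway (10 µM). BMP4 and the ALK5 inhibitor always came together, so their effects cannot be told apart. The labels give no treatment for the TSCs and the same day 2.

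Counts on genes ranged from 33913984 to 36964392 read pairs per library, and 3 counts, taken as the floor of detection, correspond to 0.0799 to 0.0902 CPM. The pluripotent markers were present in all 3 R1 libraries, with summed levels of 2207 to 3837 CPM, against 534.2 CPM in TSCs. The trophoblast markers summed to 348.9 and 408.7 CPM in 2i−L and 2iJ, to 1419 in 2iJ+B−A and to 3640 in TSCs. Elf5, a defining trophoblast factor, had 1, 2, 5 and 10471 counts in 2i−L, 2iJ, 2iJ+B−A and TSCs. The blood-cell marker Ptprc had 0 counts in all 4 libraries, where 3 counts would be the limit. The whole list of blood and endothelial markers summed to between 107.6 and 136.9 CPM. Of these, Pecam1 stood at 132.9 CPM in 2iJ, and Pecam1 and Gata1 at 42.4 and 38.8 CPM in TSCs. The study's own model lists Pecam1 as a pluripotency marker, so its level in the R1 libraries does not mark blood or endothelial cells alone. The fibroblast markers summed to between 3.50 and 37.6 CPM. In such bulk libraries, fewer cells that transcribe a gene and less RNA per cell cannot be told apart.

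Levels were compared between genes per kilobase of annotated exon. In 2iJ, Dppa3 stood highest at 94.7 CPM per kb, followed by Kit at 24.1 and Nanos3 at 21.8, whose 95% counting intervals overlapped. Dazl followed at 12.0 CPM per kb. Ddx4, Prdm1, Dnd1, Stk31 and Sycp3 lay between 9.89 and 8.64 CPM per kb, with each pair of neighbours overlapping, and Mael was lowest at 6.24 CPM per kb. In 2iJ+B−A, the order opened again with Dppa3 at 58.1 and Kit at 17.8 CPM per kb, and it closed with Dnd1 at 1.46 and Prdm1 at 0.935 CPM per kb. The intervals of these last 2 genes did not overlap. In TSCs, Ddx4 led at 4.40 CPM per kb, while Dppa3, at 0.415 CPM per kb, had an interval that overlapped those of its neighbours.

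**Figure D1:**
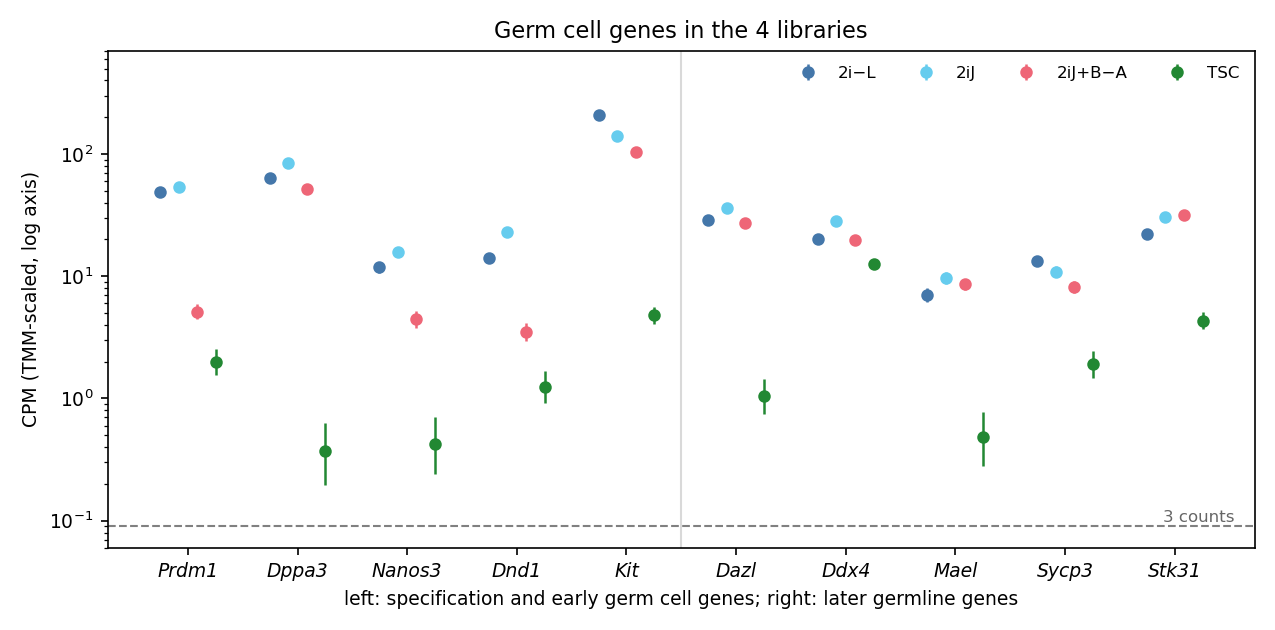
Levels of the 10 germ cell genes in the 4 libraries, as CPM after TMM scaling on a log axis. Each point is 1 library, and the vertical lines are 95% Poisson counting intervals. The dashed line marks 3 counts in 2i−L, at 0.0902 CPM. Prdm1, Nanos3 and Dnd1 fall to between 3.51 and 5.14 CPM in 2iJ+B−A. The 5 later genes on the right stay within 2-fold of 2i−L and 2iJ, as does Dppa3 on the left. TSCs are lowest for every gene.

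The first comparison asks what the BMP4 and ALK5 inhibitor library held beside its control, 2iJ. A gene was called when its log2 ratio, taken with a pseudocount of 0.5 CPM, was at least 1 in size and its 95% Clopper–Pearson counting interval excluded 0. Folds are plain ratios of CPM. All intervals cover counting error and no variation between cultures. Of all genes compared, 3.17% were called lower and 5.81% higher in 2iJ+B−A, with a median log2 ratio of -0.002. Of the 10 germ cell genes, 3 were called lower and 0 higher, with a median of -0.47. The 5 genes of specification and early germ cells had a median of -1.73, and the 5 later genes one of -0.40.

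Prdm1 encodes BLIMP1, the transcriptional repressor that sets PGC fate and represses the somatic program. It lies on chromosome 10 (NCBIM37 chr10:44156983-44248307, minus strand). Its counts were 1618 in 2i−L and 1842 in 2iJ, against 193 in 2iJ+B−A and 70 in TSCs. Thus 2i−L and 2iJ were high, at 48.7 and 53.6 CPM, and the other 2 were low, at 5.14 and 1.99 CPM. Its level was 10.4-fold lower in 2iJ+B−A than in 2iJ, with a log2 ratio of -3.26 (95% interval -3.47 to -3.07). Only 8 of the 14263 genes compared had a lower log2 ratio. Reads on the strand opposite to Prdm1 numbered 26, 20, 7 and 0.

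Dnd1, an RNA-binding protein needed for the survival of PGCs, had 471 counts in 2i−L and 796 in 2iJ, but 132 in 2iJ+B−A and 44 in TSCs. It was highest in 2iJ at 23.2 CPM and had 3.51 CPM in 2iJ+B−A. This is a 6.60-fold lower level, with a log2 ratio of -2.56 (95% interval -2.81 to -2.32), and 23 genes had a lower ratio. The counts on its opposite strand stayed between 65 and 83 in all 4 libraries. Dnd1 shares 38 exon bases with Wdr55 on that strand, and a stretch of chromosome 5 matches 77.5% of its transcript at 93.7% identity, so its counts carry some uncertainty.

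Nanos3 encodes an RNA-binding protein that keeps migrating PGCs alive, and lies at NCBIM37 chr8:86697632-86700451 (minus strand). It had 394, 546, 167 and 15 counts in 2i−L, 2iJ, 2iJ+B−A and TSCs, or 11.9, 15.9, 4.45 and 0.427 CPM. The 2iJ+B−A library stood between the other R1 libraries and the TSCs. Its level was 3.58-fold lower in 2iJ+B−A than in 2iJ, with a log2 ratio of -1.73 (95% interval -1.97 to -1.50). A lower ratio was found for 99 genes.

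Dppa3, also called Stella or PGC7, protects the maternal genome from demethylation after fertilization and marks new PGCs. It is at NCBIM37 chr6:122576428-122580290 (plus strand). Its counts were 2135, 2900, 1948 and 13 in 2i−L, 2iJ, 2iJ+B−A and TSCs, which gives 64.2, 84.5, 51.9 and 0.370 CPM. The level in 2iJ+B−A was 1.63-fold lower than in 2iJ and was not called (log2 ratio -0.70, 95% interval -0.78 to -0.62). 7 other places in the genome match over 40% of its transcript, the closest a pseudogene on the X chromosome with 97.7% identity over 98.1% of it. Read pairs that fit several places were not counted, so the level of Dppa3 is uncertain. That pseudogene itself, Gm6269, had 0 to 4 counts per library.

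Kit encodes the receptor for stem cell factor, which migrating PGCs require, and had the most counts of the 10 in each R1 library. It had 6933 counts in 2i−L and 4830 in 2iJ, then 3901 in 2iJ+B−A and 168 in TSCs, or 208.5, 140.7, 103.8 and 4.79 CPM. The R1 libraries followed each other in steps, 2i−L highest. The log2 ratio of 2iJ+B−A over 2iJ was -0.44 (95% interval -0.50 to -0.38) and Kit was not called. Against 2i−L in place of 2iJ the ratio was -1.002, which is 2.01-fold lower and just past the threshold.

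Dazl and Ddx4 mark germ cells that have reached the gonad: DAZL binds mRNAs and promotes their translation, and DDX4, the mouse Vasa, is an RNA helicase of the germ granule. Dazl had 968, 1240, 1016 and 37 counts in 2i−L, 2iJ, 2iJ+B−A and TSCs, or 29.1, 36.1, 27.0 and 1.05 CPM. Ddx4 had 665, 968, 746 and 440 counts, or 20.0, 28.2, 19.9 and 12.5 CPM. For both genes, 2iJ was highest and 2iJ+B−A was close to 2i−L. Their log2 ratios of 2iJ+B−A to 2iJ were -0.41 (95% interval -0.53 to -0.29) for Dazl and -0.50 (95% interval -0.63 to -0.36) for Ddx4. Neither was called.

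Mael, a component of the piRNA pathway that silences transposons, had 234, 331, 322 and 17 counts, or 7.04, 9.64, 8.57 and 0.484 CPM, in 2i−L, 2iJ, 2iJ+B−A and TSCs. Stk31, a germ cell kinase-like protein with a Tudor domain, had 739, 1056, 1186 and 152 counts, or 22.2, 30.8, 31.6 and 4.33 CPM. For these 2 genes the counting intervals of the log2 ratio of 2iJ+B−A over 2iJ included 0. The ratios were -0.16 (95% interval -0.38 to 0.05) for Mael and 0.04 (95% interval -0.08 to 0.16) for Stk31.

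Sycp3, a structural protein of the axes of meiotic chromosomes, had 442, 375, 306 and 67 counts, or 13.3, 10.9, 8.15 and 1.91 CPM, in 2i−L, 2iJ, 2iJ+B−A and TSCs. It was the only member besides Kit with its highest level in 2i−L. The log2 ratio of 2iJ+B−A over 2iJ was -0.40 (95% interval -0.61 to -0.19), and it was not called. Exons of Chpt1 on the opposite strand cover 52.2% of the exon bases of Sycp3. Reads on that strand numbered 69, 87, 86 and 59, and without strand, where pairs that overlap both genes are left out, the counts of Sycp3 were 188, 194, 144 and 31.

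**Figure D2:**
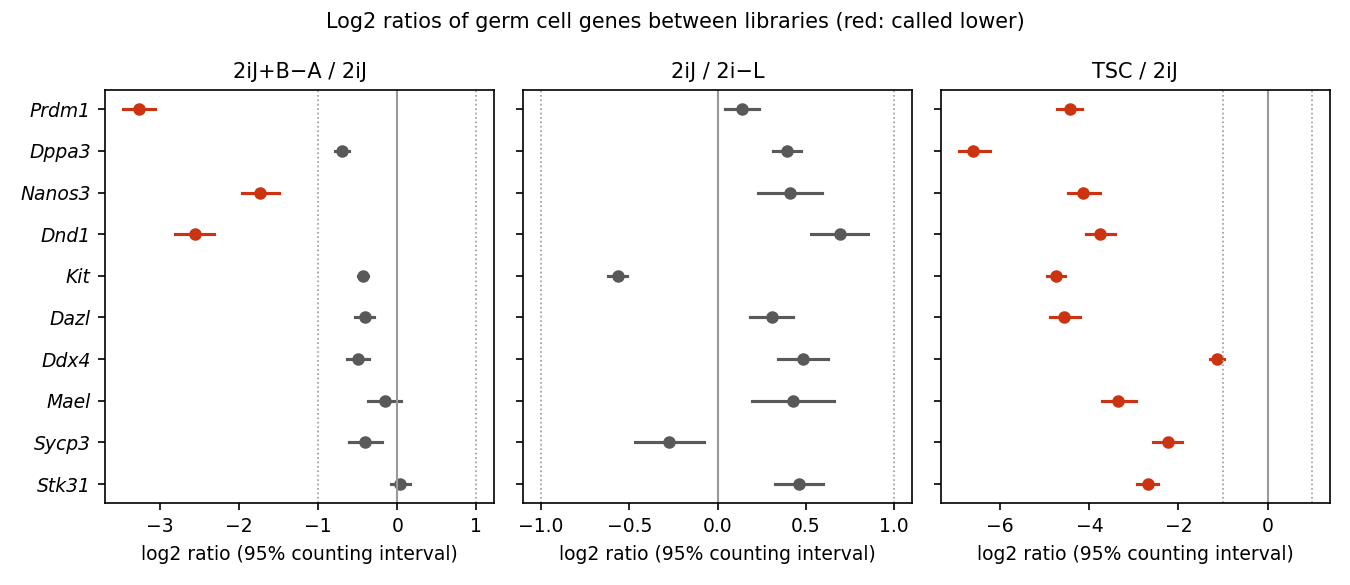
Log2 ratios of the 10 genes in the 3 comparisons, each panel with its own horizontal scale; points are ratios with a pseudocount of 0.5 CPM, lines are 95% counting intervals, dotted lines mark 2-fold, and red marks genes called lower. Prdm1, Dnd1 and Nanos3 are called lower in 2iJ+B−A, no gene is called between 2iJ and 2i−L, and all 10 are called lower in TSCs.

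**Figure D3:**
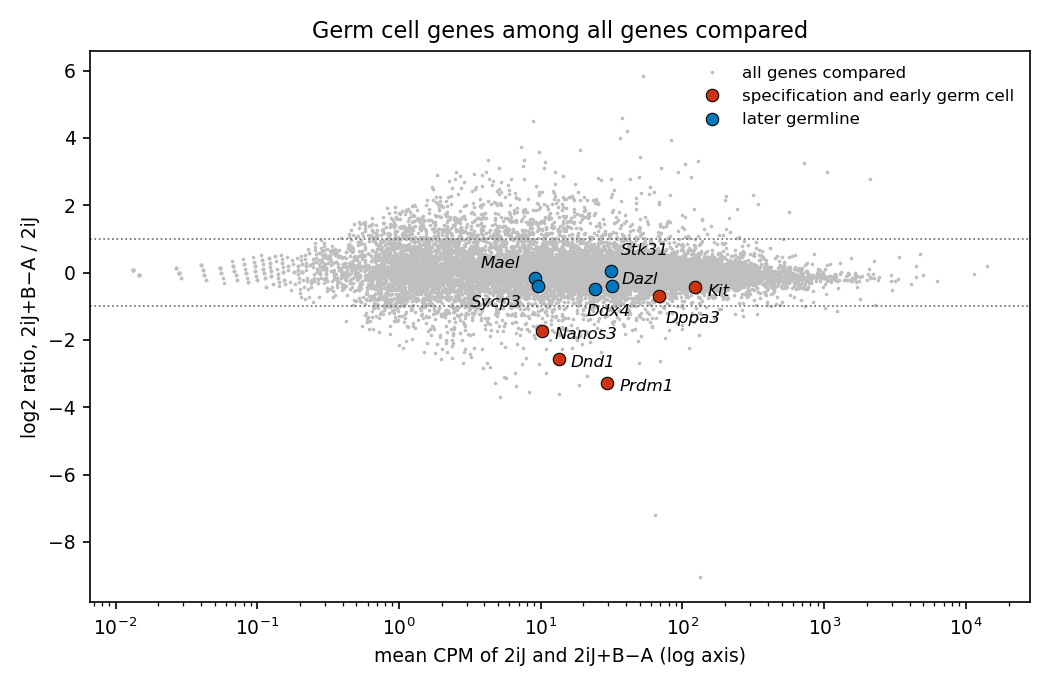
Ratio (log2) of 2iJ+B−A over 2iJ against mean CPM of both libraries (log axis) for the 14263 genes compared, 1 grey point per gene, with the 10 germ cell genes in colour and dotted lines at 2-fold. Prdm1 at -3.26 and Dnd1 at -2.56 lie at the lower edge of the cloud, and the 5 later germline genes, from -0.50 to 0.04, lie inside it.

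The promoters of the members were examined because germline genes are held silent in somatic and pluripotent cells by a repressor complex in which MGA and MAX bind the E-box CACGTG and E2F6 binds TCCCGC. RefSeq promoters of build GRCm38.p6, each 250 bases before to 50 bases after a start, were found for 8 of the 10 genes. Both motifs were searched on both strands, and they share no bases with each other in the stretches below. CACGTG, which reads the same on both strands, was in the promoters of 4 of these 8 genes, Ddx4, Mael, Sycp3 and Stk31, and in 7.15% of all 32851 promoters of that length. TCCCGC or its reverse complement, GCGGGA, was in those of Kit, Ddx4, Mael and Sycp3, and in 20.0% of all promoters. Neither motif was in the windows of Prdm1, Nanos3 and Dazl. The number of CpGs ran from 3 in Nanos3 to 38 in Ddx4, with 20 in Prdm1, beside a median of 7 over all promoters. A match of letters is a description only, and no binding was measured.

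The 250 bases before the start are shown first for the called genes Prdm1 and Nanos3 and then for the 4 later germline genes with an E-box, which were not called. Kit and Dazl, which were not called and have no E-box in their windows, are not shown. A link between motifs and calls was not tested. They are read 5′ to 3′ on the strand of the gene, from RefSeq GRCm38.p6, and capitals mark the E-box CACGTG and the E2F6 motif TCCCGC with its reverse complement GCGGGA. The stretches are chr10:44458749-44458998 (minus strand) for Prdm1, chr8:84176553-84176802 (minus strand) for Nanos3, chr13:112652311-112652560 (minus strand) for Ddx4, chr1:166238745-166238994 (minus strand) for Mael, chr10:88459337-88459586 (plus strand) for Sycp3 and chr6:49395289-49395538 (plus strand) for Stk31.
Prdm1: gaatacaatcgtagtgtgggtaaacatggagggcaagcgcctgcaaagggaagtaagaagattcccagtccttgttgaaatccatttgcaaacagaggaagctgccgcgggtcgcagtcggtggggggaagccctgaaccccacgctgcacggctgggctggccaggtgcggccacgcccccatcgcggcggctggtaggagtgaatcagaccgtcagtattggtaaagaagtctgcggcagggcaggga
Nanos3: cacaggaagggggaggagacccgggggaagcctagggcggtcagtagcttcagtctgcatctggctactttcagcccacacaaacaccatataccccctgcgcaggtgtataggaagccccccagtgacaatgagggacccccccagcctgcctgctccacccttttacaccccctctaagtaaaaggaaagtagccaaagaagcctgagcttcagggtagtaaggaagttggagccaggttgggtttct
Ddx4: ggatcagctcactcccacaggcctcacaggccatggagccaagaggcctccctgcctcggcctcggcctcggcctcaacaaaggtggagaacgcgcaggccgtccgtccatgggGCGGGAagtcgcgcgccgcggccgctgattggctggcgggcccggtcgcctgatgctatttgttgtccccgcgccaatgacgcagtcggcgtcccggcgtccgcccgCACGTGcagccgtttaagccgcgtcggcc
Mael: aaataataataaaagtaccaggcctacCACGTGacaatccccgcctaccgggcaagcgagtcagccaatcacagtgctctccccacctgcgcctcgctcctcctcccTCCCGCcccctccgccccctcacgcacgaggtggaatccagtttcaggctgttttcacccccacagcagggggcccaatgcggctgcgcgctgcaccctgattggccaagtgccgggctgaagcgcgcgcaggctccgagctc
Sycp3: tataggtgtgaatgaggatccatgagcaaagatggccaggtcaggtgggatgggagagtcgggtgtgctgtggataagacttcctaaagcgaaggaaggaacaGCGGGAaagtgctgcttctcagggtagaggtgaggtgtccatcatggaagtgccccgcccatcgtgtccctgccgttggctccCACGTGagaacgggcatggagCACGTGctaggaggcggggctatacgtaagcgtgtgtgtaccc
Stk31: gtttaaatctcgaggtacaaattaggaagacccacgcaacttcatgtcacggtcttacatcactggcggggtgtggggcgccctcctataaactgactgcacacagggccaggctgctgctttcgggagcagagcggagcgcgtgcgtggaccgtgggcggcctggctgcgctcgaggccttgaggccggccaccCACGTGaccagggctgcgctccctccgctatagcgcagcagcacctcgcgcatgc

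In these stretches Sycp3 has 2 E-boxes and Ddx4, Mael and Stk31 have 1 each. The first base of the E-box lies 29 bases before the start in Ddx4, 55 in Stk31 and 223 in Mael. In Sycp3 it lies 64 and 43 bases before the start. Of the genes that encode such repressors and their partners, including E2f6, Mga, Max and the DNA methyltransferases, 23 of 23 listed were compared. In 2iJ+B−A, 1 was called lower and 0 higher, with a median log2 ratio of -0.06. For this list and those that follow, the shares over all genes compared were 3.17% called lower and 5.81% called higher. The 1 call among 23 genes lies near that share. The gene called lower was Dnmt3a, a de novo DNA methyltransferase, at 163.0 CPM in 2iJ but 69.9 CPM in 2iJ+B−A (log2 ratio -1.21). Of 5 genes for DNA demethylation, 4 were compared, of which the dioxygenase Tet1 was called lower, with 381.9 and 154.9 CPM, and Tet3 was called higher, with 8.62 and 23.0 CPM.

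Other genes of PGC specification and early germ cells were described from a list of 22, of which 21 were compared and 5 are also pluripotent markers. In 2iJ+B−A, 5 were called lower and 1 higher, and the median log2 ratio was -0.62. Wnt3, the signal that gives epiblast cells competence for germ cell fate, had 397 counts in 2iJ and 106 in 2iJ+B−A (log2 ratio -1.86). Elmo1, which acts in cell migration, had 637 and 203 counts (log2 ratio -1.69). Fgf8, a growth factor of the primitive streak, had 43 and 2 counts, with a log2 ratio of -1.66 (95% interval -1.83 to -1.24). The other two genes called lower were Tcl1, at -1.45, and Ifitm3, at -1.37. Bmp8b, a BMP ligand with a role in PGC formation, was called higher, from 102 to 620 counts (log2 ratio 2.29). Prdm14 and Tfap2c, which act beside Prdm1 in PGC specification, were not called and had log2 ratios of -0.62 and -0.32.

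Genes listed as targets of BMP–SMAD signaling were read beside the treatment, after 2 days. SMAD binding was not measured. Of 17 listed and compared, 14 were called higher and 0 lower, with a median log2 ratio of 1.94. Hand1, a transcription factor of trophoblast and mesoderm, had 45 counts in 2iJ and 3889 in 2iJ+B−A (log2 ratio 5.84). Dlx3 had 37 and 695 counts (log2 ratio 3.59). Id1, an inhibitor of differentiation factors and a classical SMAD target, had 275 and 3441 counts (log2 ratio 3.44). The list shares 2 genes, Hand1 and Gata3, with the trophoblast markers. Of the 17, 7 were also called higher in TSCs than in 2iJ, and 3 were called lower there. The same library held high levels of BMP targets and low levels of Prdm1, Dnd1 and Nanos3.

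Genes of the primitive streak and early mesoderm, the region in which PGCs arise, were also read. Of 12 listed, 7 reached 1 CPM in some library, of which 4 were called lower and 1 higher in 2iJ+B−A. T, encoding Brachyury, had 98 counts in 2iJ and 6 in 2iJ+B−A (log2 ratio -2.35). Eomes, which is also among the trophoblast markers here, had 366 and 103 counts (log2 ratio -1.78). The other two called lower were Wnt3 and Fgf8, described above. Foxf1a, a factor of lateral mesoderm, was called higher, from 2 to 137 counts (log2 ratio 2.89, 95% interval 2.51 to 3.05).

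Genes of the piRNA pathway and germ granule, the processes in which Mael and Ddx4 act, numbered 21, of which 17 were compared. In 2iJ+B−A, 4 were called lower and 0 higher, with a median log2 ratio of -0.38. Tdrd12, a Tudor-domain helicase of piRNA formation, stood at 92.4 CPM in 2iJ but at 30.1 CPM in 2iJ+B−A (log2 ratio -1.60). Tex19.2 and Tex19.1, a pair of related genes expressed in germ cells and pluripotent cells, had log2 ratios of -1.60 and -1.33, and Tdrd5 had one of -1.19. Of 31 meiosis genes, the group of Sycp3, 25 were compared, 1 was called higher and 0 lower, and the median was -0.05. Such a count lies near the share of all genes called higher, 5.81%. The gene called higher was Stra8, the retinoic acid-induced gatekeeper of meiosis, with 808 counts in 2iJ and 2342 in 2iJ+B−A (log2 ratio 1.39). Its count in TSCs was 0.

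**Figure D4:**
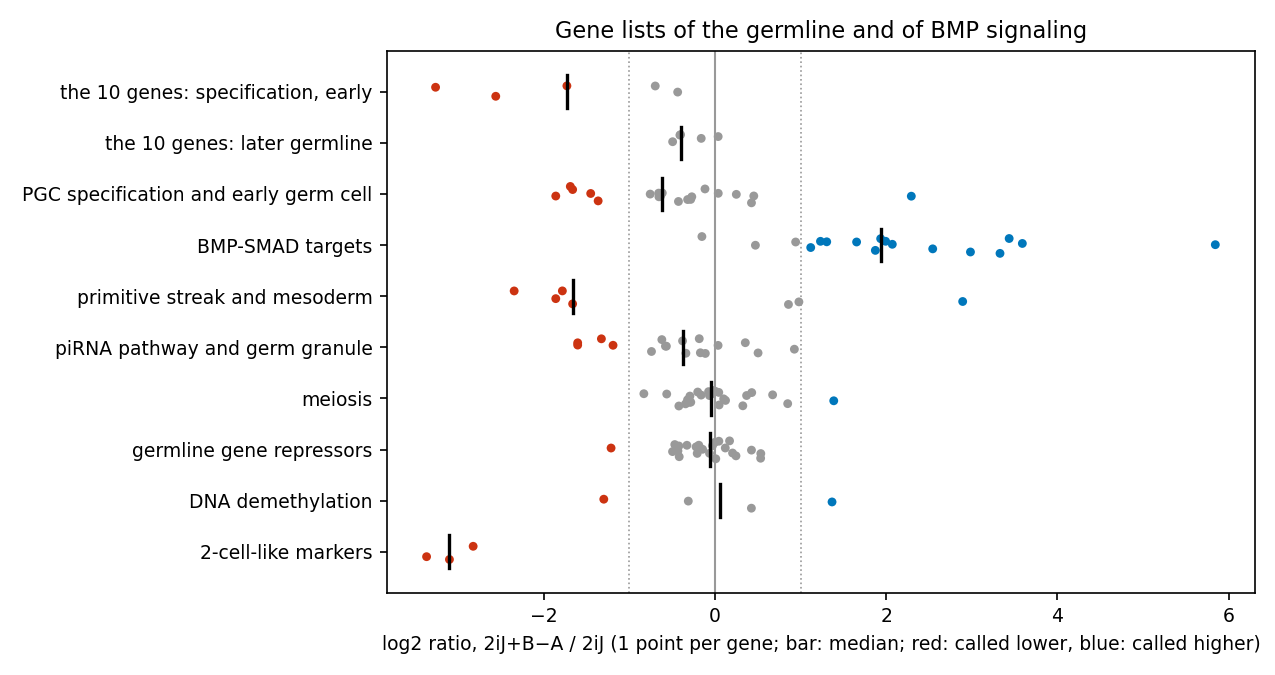
Log2 ratios of 2iJ+B−A to 2iJ for the genes of each list that reached 1 CPM in some library, 1 point per gene, with the median as a black bar, genes called higher in blue and genes called lower in red. BMP–SMAD targets have a median of 1.94, the early members among the 10 germ cell genes one of -1.73 and the later members one of -0.40.

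Marker groups were read beside Prdm1, Dnd1 and Nanos3, and their directions in 2iJ+B−A differed. The 4 matched markers of 2-cell-like cells, a rare state in mESC cultures, summed to 11.2 CPM in 2i−L and 30.6 in 2iJ, against 2.13 in 2iJ+B−A and 0.598 in TSCs. Zscan4c, Zscan4d and Zscan4f, which belong to a family of near-identical genes whose counts are uncertain, were all called lower in 2iJ+B−A, with log2 ratios of -2.83 to -3.37. Of the 7 pluripotent markers, Tdgf1 was called lower (log2 ratio -1.85), Klf4 was called higher (log2 ratio 1.17), and Nanog had a log2 ratio of -0.66. Of the 9 trophoblast markers, 6 were called higher and 1 lower. Of the 6 primitive endoderm markers compared, 4 were called higher, and all 7 listed summed to 19.7 CPM in 2iJ but to 47.7 CPM in 2iJ+B−A. Of the 5 blood and endothelial markers compared, 2 were called higher, and of the 5 fibroblast markers compared, 1 was called lower. Markers of the epiblast after implantation summed to 137.0 CPM in 2iJ and to 146.0 CPM in 2iJ+B−A, but the 3 compared differed in direction. T was called lower, Otx2 had 44.9 and 26.4 CPM (log2 ratio -0.755), and Dnmt3b had 88.7 and 119.4 CPM (log2 ratio 0.426). The part of these cell states in the levels of the germ cell genes was not tested.

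Patterns over the 4 libraries were compared among 10671 genes with at least 5 CPM on average. The measure was the Euclidean distance of log2 CPM, taken with a pseudocount of 0.5 CPM, around each gene's own mean. Gstm3 (distance 0.44) and Usp29 (0.86) were among the 3 genes nearest to Prdm1. Gstm3 had 17.6, 19.6, 2.02 and 0.228 CPM in 2i−L, 2iJ, 2iJ+B−A and TSCs. The nearest to Dppa3 were Gm13154 (0.11), Slc28a1 (0.17) and Zfp534 (0.18), each with its highest level in 2iJ and under 1 CPM in TSCs.

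The second comparison, 2iJ with 2i−L, asks what JAK inhibition changed in cells that already received both other inhibitors. It shares the 2iJ library with the other comparisons. None of the 10 germ cell genes was called, while 1.23% of all genes were called higher and 0.918% lower. The counting interval excluded 0 for all 10, but the share of all genes with such an interval was not counted. Of the 10, 8 were higher in 2iJ, and the median log2 ratio of the 10 was 0.40 beside 0.005 for all genes. Dnd1 had the highest ratio, 0.69 (95% interval 0.53 to 0.85), followed by Ddx4 at 0.49, Stk31 at 0.46 and Mael at 0.43. Nanos3 stood at 0.41, Dppa3 at 0.39, Dazl at 0.31 and Prdm1 at 0.14. Kit was lower, with a ratio of -0.57 (95% interval -0.62 to -0.51), and Sycp3 was at -0.27 (95% interval -0.47 to -0.08). Counted without strand, the ratio of Sycp3 was 0.003, so its direction depends on how reads shared with Chpt1 were counted. In the same comparison, the 3 Zscan4 genes compared were called higher in 2iJ, with log2 ratios of 1.17 to 1.54. No gene was called in the lists of PGC specification (21 compared), the piRNA pathway (17) and meiosis (25). Of the 17 BMP–SMAD targets, 5 were called higher in 2iJ, to which no BMP4 was added, and 0 lower, with log2 ratios of 2.00 for Msx1, 1.32 for Gata3, 1.18 for both Gata2 and Id2, and 1.03 for Id3. Of the repressors, Dnmt3l, the cofactor of de novo DNA methylation, was called higher in 2iJ, with 37.0 CPM in 2i−L and 118.8 CPM in 2iJ.

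The third comparison sets TSCs beside 2iJ. It therefore spans 2 cell lines, 2 lineages and different culture media, which cannot be told apart. The TSCs had a culture protocol of their own, and their labels list none of the inhibitors in 2iJ. All 10 genes were called lower in TSCs, beside 17.6% of all genes called lower and 19.4% called higher. Dppa3 differed most, with 13 counts and a level 228.1-fold lower (log2 ratio -6.61, 95% interval -6.93 to -6.23). Kit, Dazl, Prdm1 and Nanos3 had log2 ratios of -4.74, -4.56, -4.44 and -4.15, and their order depends on the pseudocount. With 0.1 CPM in its place the ratios were -4.85, -4.97, -4.68 and -4.92, and those of Dppa3 and Mael were -7.49 and -4.06. Dnd1 was at -3.76 and Mael at -3.37. Stk31 was at -2.69 and Sycp3 at -2.25, and Sycp3 had about as many reads on its own strand (67) as on the other (59) in TSCs. Dnd1 had fewer on its own strand (44) than on the other (65).

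Ddx4 differed least between TSCs and 2iJ, with 440 counts in TSCs, a level 2.25-fold lower and a log2 ratio of -1.14 (95% interval -1.30 to -0.98). Against 2i−L its ratio was -0.65, and it was then the only member not called lower in TSCs. Only 3 of its reads in TSCs lay on the opposite strand. No member was at or under 3 counts in TSCs, where the lowest were Dppa3 with 13, Nanos3 with 15 and Mael with 17 counts. Of the 21 other genes of PGC specification compared, 16 were called lower in TSCs and 2 higher. The 2 were Bmp8b, with 117.3 CPM in TSCs, and Tfap2c, with 340.4 CPM, which also acts in trophoblast.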

How the data were processed

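RNA-seq libraries were poly-A selected and strand-specific, and were sequenced as paired reads of 126 bases. The authors trimmed reads, mapped them to the mouse genome NCBIM37 with STAR 2.4.2a, as the submitters' processing notes list, and deposited whole-number counts of uniquely mapped read pairs per Ensembl gene, without normalization; the annotation release is not given in the sources used here. Counts in the column for the strand of the library (column 4) were used here. Rows that name no gene held 16.4% to 17.8% of the read pairs and were left out.

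TMM factors came from edgeR 4.0.16 in R 4.3.3, and ratios, exact intervals and figures from Python 3.11.15 with scipy 1.17.1 and matplotlib 3.10.9. With 1 library per condition no test between conditions was run. Exon lengths, overlaps and transcript matches (minimap2 2.31) used GENCODE vM1 on NCBIM37, the build of the counts. The calling rule was also run on simulated counts that held counting error only, which cannot show variation between cultures. The members and the gene lists were chosen with earlier results of these data known. The genes named are the members, the genes of each list called between 2iJ+B−A and 2iJ with the largest ratios (at most 3 in each direction, plus those needed to state a list whole), markers, and the 3 nearest patterns to Prdm1 and Dppa3, of which 1 is not reported here. Tcstv1 and Tcstv3 were not matched. Alternatives were the count without strand, other scaling, pseudocounts, filters, folds and reference, and an exact binomial test.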

Additional observations from a re-analysis of the deposited data

How the results depend on the processing

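Of the 10 germ cell genes, 3 were called between 2iJ+B−A and 2iJ under each scaling, pseudocount, filter and strand setting tried and with the exact binomial test; the genes were Prdm1, Nanos3 and Dnd1 each time. A fold of 1.5 called 4, with Dppa3 added, a fold of 4 called 2, Prdm1 and Dnd1, and 2i−L as the reference called 4, with Kit added. Between 2iJ and 2i−L, a fold of 1.5 called 1 gene, Dnd1, where 0 were called otherwise, which follows from the lower threshold. In TSCs, 10 were called except with a fold of 4 or 2i−L as the reference, where 9 were called, without Ddx4 in both. Of 320 values of single genes under alternatives, 294 lay within the counting interval of the main value and 10 of the other 26 came with the same reference. A pseudocount of 0.1 CPM moved Dppa3, Nanos3 and Mael in TSCs by over 1.5 times, to -7.49, -4.92 and -4.06 on the log2 scale, and one of 1 CPM moved Dppa3 by over 1.5 times, to -5.96. The sign changed for 2 values that were not called: Mael in 2iJ+B−A was at 0.27 against 2i−L, and Sycp3 between 2iJ and 2i−L was at 0.003 without strand. No paired analysis was possible because each condition has 1 library. Depth limits the values in TSCs, where Dppa3, Nanos3 and Mael rest on under 20 counts, and variation between cultures was not measured.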

Other observations

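Germline genes outside the 10 were also read in TSCs, and those below were named after their values were seen. Of all genes compared, 19.4% were called higher and 17.6% lower in TSCs than in 2iJ, and the counts called higher below lie near that share. Of the 17 genes of the piRNA pathway and germ granule that were compared, 8 were called lower in TSCs than in 2iJ and 4 were called higher. The 4 were Tex19.1, with 71.7 CPM in 2iJ but 219.1 CPM in TSCs, Tdrkh, with 4.08 and 35.1 CPM, Tdrd7, with 3.55 and 23.4 CPM, and Tdrd3, with 9.06 and 29.1 CPM. Of the 25 meiosis genes compared, 14 were called lower in TSCs and 4 higher. The 4 were Tex101, with 0.961 CPM in 2iJ but 24.0 CPM in TSCs, Msh5, with 1.14 and 9.37 CPM, Sycp2, with 2.65 and 12.5 CPM, and Taf7l, with 3.47 and 14.2 CPM. Hormad1, Syce1 and Tex11, also of the meiosis list, had 1, 4 and 1 counts in TSCs and 741, 533 and 545 counts in 2iJ.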
